A study of Rattus norvegicus with 6 samples.

Results

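Chemokine ligands and chemokine receptors were examined in kidney RNA of male Sprague Dawley rats. The members were every gene whose symbol begins with Ccl, Cxcl, Ccr, Cxcr, Cx3c, Xcl or Xcr followed by a digit, l or r, which gave 53 of the 17051 genes in the files, 34 ligands and 19 receptors. The AL group (rats 61, 71 and 88) received standard laboratory chow ad libitum for 7 days, and the HD group (rats 64, 67 and 69) received for 7 days the same chow mixed with amino acids that mimic the composition of hemoglobin, with a daily 3 g per kg of body weight. The labels call the second diet hyperammonemic, and the comparison asks how kidney transcripts differ between the diets. Every rat gave 1 RNA library of kidney tissue, and neither the region of the kidney nor any cell sorting is given.

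Chemokines are small secreted proteins that direct the movement of leukocytes, and they are named CC, CXC, CX3C or XC after the spacing of their first cysteines. Inflammatory chemokines are switched on by cytokines through transcription factors such as NF-kappaB and the interferon regulatory factors, while homeostatic chemokines are made without a stimulus and guide lymphocytes and resident cells. Their receptors signal through inhibitory G proteins, and most are carried by leukocytes, whereas the ligands are also made by tubular, endothelial and stromal cells of the kidney.

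Estimated counts summed to between 12499945 and 30466461 per rat, with a median of 14542028 in AL rats and 21086503 in HD rats. A gene was tested when its count reached 30 in at least 1 rat, which 11553 of all genes and 27 of the 53 members did. The diets were compared by the quasi-likelihood test of edgeR, with *P* values adjusted over all 11553 genes. Differences are given as the log2 ratio of HD to AL with its standard error (SE). Markers of the proximal tubule (Lrp2), thick ascending limb (Umod) and collecting duct (Aqp2) were abundant in every rat, at 1791 CPM or more, 2721 CPM or more and 628 CPM or more. In whole tissue, fewer cells of a type and less RNA per cell cannot be told apart.

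Cxcl12, Cx3cl1 and Cxcl16 led the family in level. Per transcript length, Cxcl12, the homeostatic ligand of Cxcr4 and Cxcr7, was the most abundant member, with 95.3, 214 and 142 TPM in the AL rats 61, 71 and 88 and 50.4, 126 and 85.4 TPM in the HD rats 64, 67 and 69. Cx3cl1, a membrane-bound ligand also called fractalkine, was at 60.9, 91.6 and 64.0 TPM in the AL rats and 61.1, 66.0 and 61.9 TPM in the HD rats. Together Cxcl12 and Cx3cl1 made up between 45.5% and 57.1% of all chemokine ligand TPM in a rat. Cxcl16, another membrane-bound chemokine, followed with a mean of 50.8 TPM over the 6 rats, then the receptor Cxcr7 with 28.2 TPM. The interferon-inducible ligands Cxcl10 and Cxcl11 came next with means of 24.1 and 19.3 TPM, and Ccl24, an attractant of eosinophils, with 14.3 TPM. No receptor other than Cxcr7 had a mean above 7.68 TPM, the mean of Ccr10.

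**Figure D1:**
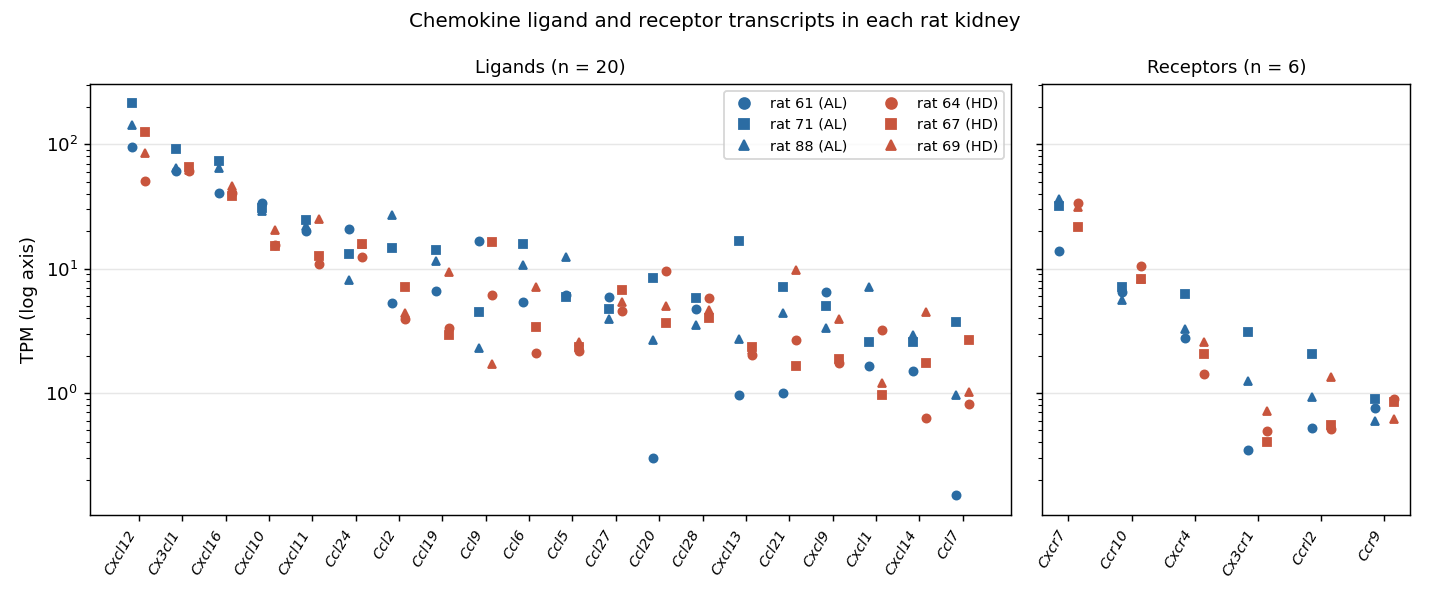
TPM of 20 tested ligands and 6 tested receptors on a log axis, ordered by their mean over the rats, with 1 point per rat in blue for the AL group and red for the HD group. Cxcl12, Cx3cl1 and Cxcl16 lead the ligands, Cxcr7 leads the receptors, and Ccl20 and Ccl7 show single AL values far below the others.

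The summed TPM of all 34 ligands was 342, 572 and 434 in the AL rats 61, 71 and 88 and 243, 337 and 324 in the HD rats 64, 67 and 69, so that each HD rat was below each AL rat. Without Cxcl12 and Cx3cl1 the ligands summed to 186, 267 and 228 TPM in AL rats and 132, 145 and 176 TPM in HD rats, again without overlap. The 19 receptors summed to 32.3, 64.0 and 56.1 TPM in the AL group and 53.1, 38.5 and 52.3 TPM in the HD group, and here the groups overlapped. Cxcr7 alone held 13.8 to 36.1 TPM of the receptor sum.

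None of the 27 tested members passed an adjusted *P* value of 0.05 in edgeR's quasi-likelihood test, and neither did any other gene (0% of 11553). The smallest adjusted *P* value of a member was 0.368, for Cxcl10. At unadjusted *P* below 0.05 edgeR gave 7 members, or 25.9%, against 10.6% of all tested genes. Of these, 6 were lower in the HD group, which is 22.2% of the members against 5.94% of all genes, and 1 was higher, Ccr10, where the share over all genes was 4.66%. DESeq2, the tool of the study's methods, gave 8 members at unadjusted *P* below 0.05, against 11.5% of all tested genes, and 1 member, Cxcl10, at adjusted *P* up to 0.05, against 1.58%. Among the tested members 11 were higher in the HD group and 16 lower, at a median log2 ratio of -0.42, while 48.7% of all genes were lower and their median was 0.0067. The members passed the count minimum in unequal ways: Ccl5, Ccl7, Cxcl1 and Cx3cr1 reached it only in AL rats and had to be higher there in some rat, and Cxcl9 and Ccr9 reached it only in HD rats, which include the deepest library. The number of members at unadjusted *P* below 0.05 in edgeR was 4 without rat 71, 4 without rat 88, 4 without rat 67 and 3 without rat 64. Over all genes the number fell as well, from 1224 to 892, 605, 960 and 640 in the same fits.

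**Figure D2:**
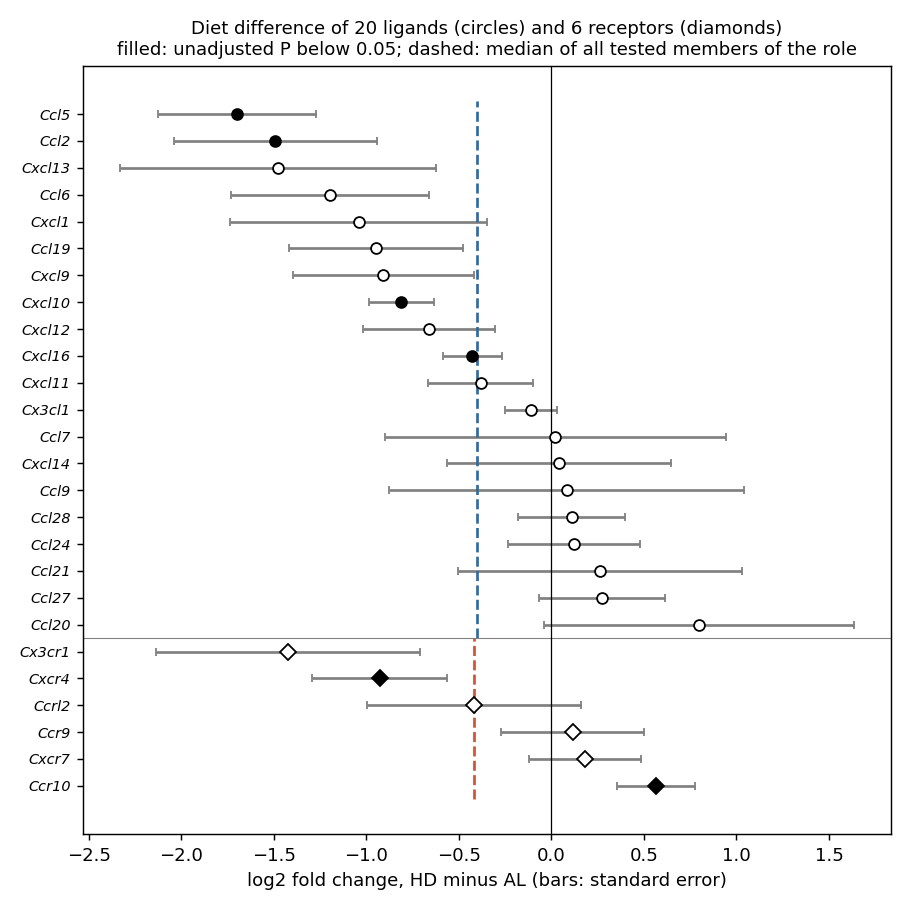
Log2 fold change of each tested member, HD minus AL, with its standard error from edgeR, for 20 ligands (circles) above and 6 receptors (diamonds) below. Filled points have an unadjusted P value below 0.05, and the dashed medians of all tested ligands (-0.40) and all 7 tested receptors (-0.42) lie close to each other.

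Cxcl10 gave the clearest difference. It is an interferon-inducible CXC ligand of the receptor Cxcr3 on activated T cells, and lies on chromosome 14 of rn5 from 17126865 to 17129062 with 4 exons. Its level was 25.9, 19.5 and 19.8 CPM in the AL rats 61, 71 and 88 and 11.6, 11.4 and 13.9 CPM in the HD rats 64, 67 and 69. Every HD rat was below every AL rat (*P* = 0.1 in a two-sided exact permutation, the smallest value that 3 against 3 rats allow). Means were 21.7 ± 3.62 and 12.3 ± 1.39 CPM (SD, *n* = 3 each). The log2 ratio was -0.81 ± 0.17 (SE, adjusted *P* = 0.368 in edgeR and 0.0159 in DESeq2), or 1.75-fold lower in the HD group. When single rats were left out it stayed between -0.90 and -0.67, and the unadjusted edgeR *P* value stayed at or below 0.00934.

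Cxcl11 and Cxcl9, the other Cxcr3 ligands, lie next to Cxcl10 within 38.7 kb of chromosome 14. Cxcl11 was at 14.3, 14.4 and 13.9 CPM in the AL group and 7.55, 8.89 and 16.0 CPM in the HD group. Rats 64 and 67 were below all AL rats and rat 69 was above them, and the log2 ratio was -0.38 ± 0.28 (SE, adjusted *P* = 0.699 in edgeR). Cxcl9 was at 2.30, 1.497 and 1.06 CPM in the AL group and 0.594, 0.650 and 1.25 CPM in the HD group, with a log2 ratio of -0.91 ± 0.49 (SE, adjusted *P* = 0.567 in edgeR). For Cxcl9, HD rat 69 lay within the AL range, so for both genes the groups overlapped through the same HD rat. The log2 ratio of Cxcl11 was -0.78 without rat 69, -0.26 without rat 67 and -0.19 without rat 64. That of Cxcl9 was -1.35 without rat 69 and -0.58 without rat 61. Their receptor Cxcr3 reached at most 24 counts in a rat and was not tested.

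The upstream sequences of this gene cluster are shown because its 3 genes were all lower in the HD group, and those of Cxcl16 and Cxcr4 because they were the other members with unadjusted *P* below 0.05 that matched an entry. The sequences are the 250 bases before each RefSeq gene start in the build GRCr8, 5′ to 3′ on the gene's strand. Capitals mark matches on either strand to a kappaB motif (GGG, then NNN, then TTCC), an interferon response element (GAAA, then NN, then GAAA), a GAS element (TTCNNNGAA) or an AP-1 motif (TGANTCA), and matches that overlap are joined.
Cxcl10 (chr14:15988816-15989065, plus strand): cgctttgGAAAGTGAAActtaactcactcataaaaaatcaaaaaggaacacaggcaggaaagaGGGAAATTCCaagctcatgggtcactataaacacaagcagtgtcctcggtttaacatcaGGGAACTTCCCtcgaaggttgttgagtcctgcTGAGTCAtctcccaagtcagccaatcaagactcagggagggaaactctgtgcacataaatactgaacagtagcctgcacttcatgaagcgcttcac
Cxcl11 (chr14:15973478-15973727, plus strand): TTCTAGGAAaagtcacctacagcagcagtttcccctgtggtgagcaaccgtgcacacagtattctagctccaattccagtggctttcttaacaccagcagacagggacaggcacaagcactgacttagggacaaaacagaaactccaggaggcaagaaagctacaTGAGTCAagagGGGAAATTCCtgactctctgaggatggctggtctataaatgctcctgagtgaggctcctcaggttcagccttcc
Cxcl9 (chr14:16006916-16007165, plus strand): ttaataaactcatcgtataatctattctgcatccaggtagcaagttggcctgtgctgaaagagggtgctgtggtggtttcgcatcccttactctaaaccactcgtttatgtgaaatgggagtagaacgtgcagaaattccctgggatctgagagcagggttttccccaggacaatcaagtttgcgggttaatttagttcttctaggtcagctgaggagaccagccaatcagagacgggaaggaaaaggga
Cxcl16 (chr10:55669951-55670200, minus strand): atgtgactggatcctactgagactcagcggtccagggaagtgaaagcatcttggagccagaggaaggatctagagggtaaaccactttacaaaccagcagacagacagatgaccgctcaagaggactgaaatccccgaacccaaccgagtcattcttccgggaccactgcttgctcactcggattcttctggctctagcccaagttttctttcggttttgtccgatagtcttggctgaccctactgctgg
Cxcr4 (chr13:42634289-42634538, minus strand): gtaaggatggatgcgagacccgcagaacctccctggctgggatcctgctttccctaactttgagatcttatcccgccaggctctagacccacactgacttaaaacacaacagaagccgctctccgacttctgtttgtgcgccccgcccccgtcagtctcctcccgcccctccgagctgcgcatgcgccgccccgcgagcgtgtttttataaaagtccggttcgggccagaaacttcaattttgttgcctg

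Of the 27 tested members 22 matched a RefSeq entry, with Cxcr7 matched as Ackr3. Ccl2, Ccl5, Ccr9 and Ccr10 did not match. The Cxcl10 window held kappaB matches from 187 to 178 bases and from 128 to 118 bases upstream, an interferon response element match from 243 to 234 bases and an AP-1 match from 96 to 90 bases. Cxcl11 held a kappaB match from 74 to 65 bases, an AP-1 match from 85 to 79 bases and a GAS match from 250 to 242 bases upstream. None of the 4 motifs was found in the windows of Cxcl9, Cxcl16 and Cxcr4. Over the 22 members, 7 held a kappaB match (4.53% of all 33465 windows), 4 an AP-1 match (6.34%), 2 an interferon response element match (3.41%) and 2 a GAS match (7.67%). The 7 members with a kappaB match were Cxcl1, Cxcl10, Cxcl11, Ccl6, Ccl7, Ccl9 and Ccl20, whose log2 ratios ran from -1.20 for Ccl6 to 0.80 for Ccl20. A match describes letters in the window and is not a measured binding site.

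Ccl5, a CC ligand made by T cells and by stimulated tubular cells, had the lowest log2 ratio of all members. It was at 2.22, 1.77 and 4.04 CPM in the AL rats and 0.764, 0.849 and 0.831 CPM in the HD rats, which did not overlap. The 3 HD rats were close together and well below the AL rats. The log2 ratio was -1.70 ± 0.43 (SE, adjusted *P* = 0.379 in edgeR and 0.0725 in DESeq2), or 3.25-fold lower in the HD group, with a range of -1.93 to -1.27 when each rat was left out and an unadjusted edgeR *P* value of at most 0.0271 in those fits. Its counts were small, with 61 as the highest in any rat, and reached the count minimum only in AL rats.

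Ccl2, the main monocyte attractant, was at 2.70, 6.32 and 12.3 CPM in the AL group and 1.95, 3.60 and 2.01 CPM in the HD group. AL rat 61 lay within the HD range, and the AL rats themselves differed widely. The log2 ratio was -1.49 ± 0.55 (SE, adjusted *P* = 0.419 in edgeR), and it moved to -0.84 without AL rat 88. Ccl7, a neighbour of Ccl2 on chromosome 10 that shares its receptors, had a log2 ratio of 0.02 with a standard error of 0.92, and its values ran from 0.0794 to 1.66 CPM within the AL group alone. Ccr2, the receptor listed for Ccl2 and Ccl7, is not among the genes that were quantified, so its level is unknown. The same holds for Ccr8, the receptor listed for Ccl1. Ccl6, which attracts macrophages in rodents, was at 1.11, 2.72 and 1.99 CPM in the AL group and 0.424, 0.700 and 1.31 CPM in the HD group, with a log2 ratio of -1.20 ± 0.54 (SE, adjusted *P* = 0.488 in edgeR). Ccl9, the neighbour of Ccl6, was split within both groups, as rats 61 and 67 stood at 14.7 and 14.2 CPM and the other 4 rats between 1.34 and 5.18 CPM. Its log2 ratio was 0.08 with a standard error of 0.96.

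**Figure D3:**
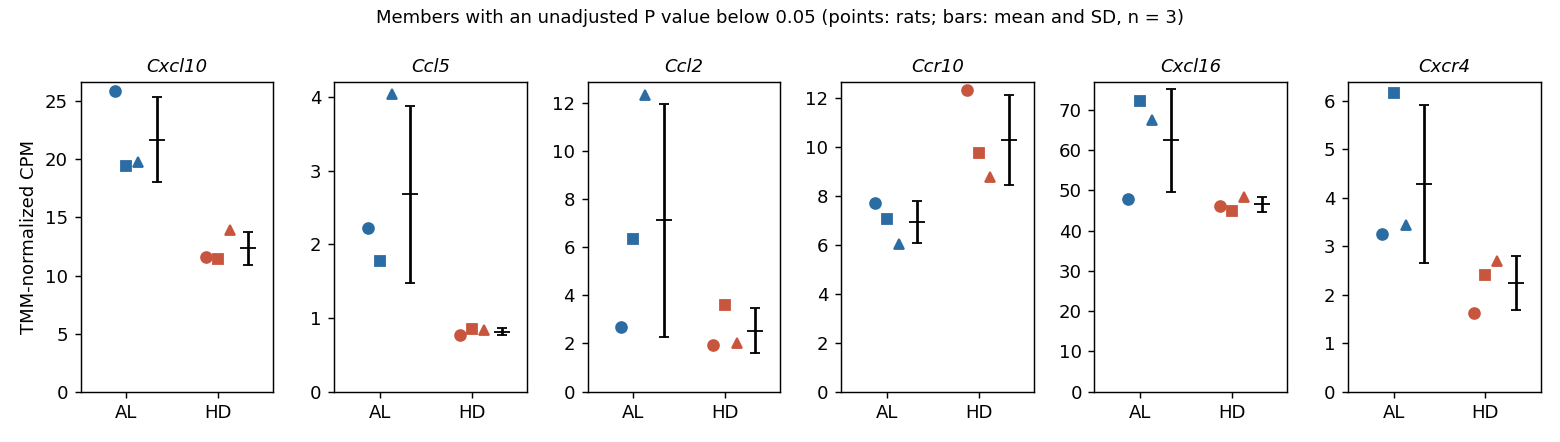
TMM-normalized CPM of 6 members with an unadjusted P value below 0.05, with 1 point per rat and the mean and SD of each group (n = 3), each panel on its own axis from 0. Cxcl10, Ccl5 and Cxcr4 are lower in every HD rat than in every AL rat, Ccr10 is higher in every HD rat, and Ccl2 and Cxcl16 overlap through AL rat 61.

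Cxcl16, which binds Cxcr6 on T and NK cells, was at 48.0, 72.2 and 67.4 CPM in the AL group and 46.3, 44.8 and 48.5 CPM in the HD group. AL rat 61 stood with the HD rats, and the log2 ratio was -0.43 ± 0.16 (SE, adjusted *P* = 0.426 in edgeR). The other AL rats were above every HD rat, and the log2 ratio was -0.58 without rat 61 and -0.31 without rat 71. Of the 1707 bases of Cxcl16, 119 overlap exons of Zmynd15 on the opposite strand, and the library kit does not mark strand. Zmynd15 itself was at most 11.5 CPM in a rat and had a log2 ratio of -0.023.

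Cxcl12 was at 155, 289 and 204 CPM in the AL group and 80.0, 204 and 125 CPM in the HD group. HD rat 67 reached the AL range, and the log2 ratio was -0.66 ± 0.36 (SE, adjusted *P* = 0.567 in edgeR, unadjusted *P* = 0.0476 in DESeq2). It was -1.07 without HD rat 67, -0.39 without HD rat 64 and -0.40 without AL rat 71. The files list 3 Cxcl12 transcripts of 1845, 2850 and 5423 bases on chromosome 4, from 215195689 to 215208536. Of Cxcl12 TPM the 1845-base form took 55.0% to 57.3% in a rat and the 2850-base form 39.6% to 43.3%. The scarce 5423-base form took 1.71%, 2.25% and 1.73% in the AL rats and 2.38%, 3.12% and 3.02% in the HD rats, which were all above the AL rats, and this difference was not tested. Cxcr4, the signalling receptor of Cxcl12 on leukocytes and endothelium, was at 3.26, 6.15 and 3.44 CPM in the AL group and 1.61, 2.40 and 2.69 CPM in the HD group, without overlap. The log2 ratio of Cxcr4 was -0.93 ± 0.36 (SE, adjusted *P* = 0.441 in edgeR), and it was -0.57 without AL rat 71. Cxcr7, the atypical receptor that takes up Cxcl12 without G protein signalling, was at 18.4, 35.6 and 42.9 CPM in the AL group and 44.1, 28.8 and 37.5 CPM in the HD group. AL rat 61 was below every HD rat, the groups overlapped, and the log2 ratio was 0.18 ± 0.30 (SE, adjusted *P* = 0.888 in edgeR). The 2 receptors of Cxcl12 thus lay on opposite sides, a difference that was not tested, and Cxcr7 turned to -0.10 when rat 61 was left out.

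Cx3cl1 had the smallest standard error of the tested members. It was at 130, 163 and 122 CPM in AL rats and 127, 139 and 118 CPM in HD rats, with a log2 ratio of -0.11 ± 0.14 (SE). Cx3cr1, its receptor on monocytes and macrophages, was scarce at 0.318, 2.33 and 0.993 CPM in the AL group and 0.424, 0.350 and 0.576 CPM in the HD group. AL rat 61 was the lowest of all rats and AL rat 71 the highest, and the log2 ratio was -1.42 ± 0.71 (SE, adjusted *P* = 0.534 in edgeR). Without rat 71 the log2 ratio of Cx3cr1 was -0.54.

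The lymphoid chemokines, which guide B and T cells into lymphoid tissue, followed single rats. Cxcl13, a B cell attractant, stood at 10.1 CPM in AL rat 71 and between 0.715 and 1.79 CPM in the other 5 rats, and its log2 ratio went from -1.48 ± 0.85 (SE) to 0.27 without rat 71. Ccl19, a ligand of Ccr7, was at 3.10, 5.49 and 4.76 CPM in the AL group and 1.53, 1.35 and 3.90 CPM in the HD group, a log2 ratio of -0.95 ± 0.47 (SE, adjusted *P* = 0.531 in edgeR) that was -1.63 without rat 69. Ccl21, the other Ccr7 ligand and a product of lymphatic endothelium, was at 0.556, 3.27 and 2.18 CPM in the AL group and 1.44, 0.899 and 4.80 CPM in the HD group, a log2 ratio of 0.26 ± 0.77 (SE). For both Ccr7 ligands rat 69 was the highest HD rat.

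Among the receptors and ligands of epithelial surfaces, Ccr10 was the only member with unadjusted *P* below 0.05 that was higher in the HD group. Ccr10 binds Ccl27 and Ccl28 and is known from skin-homing T cells and antibody-secreting cells. It was at 7.70, 7.04 and 6.02 CPM in the AL group and 12.3, 9.74 and 8.76 CPM in the HD group. The groups did not overlap, where 7.25% of all tested genes were higher in every HD rat than in every AL rat. The log2 ratio was 0.57 ± 0.21 (SE, adjusted *P* = 0.426 in edgeR), between 0.42 and 0.68 with each rat left out. Ccl27 and Ccl28 had log2 ratios of 0.27 ± 0.34 (SE) and 0.11 ± 0.29 (SE), and their groups overlapped. The ratio of Ccl27 ran from 0.07 without rat 67 to 0.53 without rat 61. Ccl20, which attracts Ccr6-bearing lymphocytes, had the highest log2 ratio of the ligands, 0.80 ± 0.84 (SE), but the AL values of 0.159, 3.66 and 1.26 CPM enclosed HD rats 67 and 69 at 1.90 and 2.37 CPM. Its log2 ratio was 0.28 without rat 61, where 2 reads were counted, 0.30 without rat 64 and 2.05 without rat 71. Ccl24 was at 20.6, 10.8 and 7.28 CPM in the AL group and 12.1, 15.7 and 14.0 CPM in the HD group, a log2 ratio of 0.12 ± 0.36 (SE).

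The remaining tested members lay under 5 CPM and overlapped between the groups. Cxcl1, a neutrophil attractant, ranged from 0.600 to 3.97 CPM with AL rat 88 as the highest, and had a log2 ratio of -1.04 ± 0.69 (SE), which was -0.19 without rat 88 and -1.72 without rat 64. Cxcl14, an epithelial chemokine, was at 2.32 CPM on average in both groups, with a log2 ratio of 0.039 ± 0.60 (SE). Ccrl2, a non-signalling receptor that presents chemerin, had a log2 ratio of -0.42 ± 0.58 (SE), and Ccr9, a receptor of gut-homing lymphocytes, of 0.11 ± 0.39 (SE).

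Ligands and receptors had medians close to each other, and a difference between them was not tested. Of the 20 tested ligands 12 were lower in the HD group and 8 higher, with a median log2 ratio of -0.40. In edgeR 4 ligands had unadjusted *P* below 0.05, all lower, which is 20% against 5.94% of all tested genes. One of the 4, Ccl5, reached the count minimum only in AL rats and had to be higher there in some rat. Of the 7 tested receptors 4 were lower and 3 higher, with a median of -0.42. At unadjusted *P* below 0.05 in edgeR there were 3 receptors, of which 2 were lower. These 3 are 42.9% of the tested receptors, against 10.6% of all tested genes. The receptor median rested on single rats, at 0.18 without rat 71, -0.22 without rat 64 and -0.23 without rat 67, and at 0.085 over genes with at least 10 counts in every rat. The ligand median was -0.71 without rat 67 and -0.77 without rat 69. By cysteine class, 7 of the 8 tested CXC ligands were lower, with a median of -0.74, and 4 of the 11 tested CC ligands, with a median of 0.08. Of the 6 listed pairs with both partners tested, 3 were lower in both partners, 2 higher in both and 1 opposite, the last being Cxcl12 with Cxcr7. Groups did not overlap for 4 members that were lower in the HD group (14.8% against 7.01% of all tested genes) and 1 that was higher (3.70% against 7.25%). AL rat 71 was the highest of the 6 rats for 10 of the 27 tested members and the lowest for 0, and HD rat 64 was the lowest for 9.

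Neighbouring members were not always on the same side. Of the 53 members 34 fell into 9 clusters with gaps of at most 500 kb in rn5. The Cxcl9, Cxcl10 and Cxcl11 cluster on chromosome 14 from 17111527 to 17150220 was lower in all 3 genes. In the chromosome 10 cluster from 69047091 to 69172142, Ccl2 had a log2 ratio of -1.49 and Ccl7 of 0.02, and in that from 70373354 to 70518060 Ccl5 and Ccl6 were lower and Ccl9 was not. On chromosome 5 from 62683432 to 62723718, Ccl19 was lower while Ccl27 and Ccl21 were not.

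The other 26 members, 14 ligands and 12 receptors, stayed under 30 counts in every rat. Among them, Ccr1l1 and Cxcr1 had 0 counts in all 6 rats, which allows up to 0.0959 CPM in the deepest library and 0.255 CPM in the shallowest at 3 counts. Ccr3, Ccl1, Cxcl3 and Cxcl5 had at most 1 count in a rat. Ccl25, Ccr4, Cxcr2 and Xcl1 had at most 3, Ccl17 and Cxcl17 at most 4, Ccl12 at most 5, and Ccl4, Ccl22 and Ccr6 at most 7. Ccr1 reached 10 counts, Ccl11 and Ccr7 10.4 and 11, Ccl26 14, Xcr1 16, Cxcl2 and Cxcr6 19, Ccl3 22, and Cxcr3 and Cxcr5 24. Cxcr6, the receptor of Cxcl16, had 3, 19 and 6 counts in the AL rats and 0, 2 and 0 in the HD rats. When all libraries were thinned to the smallest total, between 41 and 46 members had at least 1 count in a rat and between 12 and 22 had at least 30. The highest of these numbers were those of AL rat 71.

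Leukocyte transcripts were lower in the HD group for the lists of pan-leukocyte, macrophage and T cell markers. All 5 pan-leukocyte markers were lower there, at a median log2 ratio of -1.46, and 4 had unadjusted *P* below 0.05 in edgeR (80% against 10.6% of all tested genes). Their summed level was 75.4 to 118 CPM in the AL rats and 36.6 to 63.8 CPM in the HD rats. Ptprc, the leukocyte common antigen CD45, was at 7.15, 17.3 and 9.33 CPM in the AL group and 2.80, 3.25 and 4.96 CPM in the HD group, a log2 ratio of -1.61 ± 0.39 (SE, adjusted *P* = 0.368 in edgeR and 0.0133 in DESeq2). All 11 tested macrophage markers were lower (median -1.41), and 8 had unadjusted *P* below 0.05 in edgeR (72.7% against 10.6% of all tested genes). Among them Itgam, with at most 33 counts, reached the count minimum only in AL rats and had to be higher there in some rat. Groups did not overlap for 2 of the 11, Aif1 and Lyz2, both lower in the HD group (18.2% against 7.01% of all tested genes). The 12 measured summed to 153 to 518 CPM in the AL group and 59.8 to 138 CPM in the HD group. Lyz2 was the largest part of each sum, at 92.2, 341 and 227 CPM in AL rats and 26.7, 37.5 and 68.8 CPM in HD rats. Without Lyz2, HD rat 69 would sum above AL rat 61. All 6 tested T cell markers were lower as well (median -1.98), and 5 had unadjusted *P* below 0.05 in edgeR (83.3% against 10.6% of all tested genes). However, Cd2, Cd3e, Cd3g, Cd247 and Cd8a reached the count minimum only in AL rats and had to be higher there in some rat. The count minimum itself thus favoured the lower direction in this list. Over 10 measured markers, tested or not, the sums were 8.10 to 33.5 CPM in the AL group and 2.89 to 6.49 CPM in the HD group. Cd3e was at 0 counts in HD rats 64 and 67. The 6 NK cell markers, none of which was tested, summed to 2.38 to 2.70 CPM in AL rats and 1.05 to 1.53 CPM in HD rats. All 5 tested dendritic cell markers were lower (median -0.90) with 0 at unadjusted *P* below 0.05, and their sums overlapped, at 202 to 307 CPM and 121 to 271 CPM. The B cell markers were scarce, at 1.46 to 3.02 CPM in the AL group and 2.04 to 2.37 CPM in the HD group. The 7 neutrophil markers summed to 1.19 to 1.91 CPM in the AL group and 5.95 to 7.72 CPM in the HD group. The groups overlapped for each of the 7 markers alone. Mpo was the largest part of the sum in rats 67 and 69, at 4.597 and 4.80 CPM, and was at 0.0849 CPM in rat 64. In rat 64 the largest parts were S100a9 and S100a8, at 4.67 and 2.04 CPM. Csf3r was at a mean of 0.489 CPM in the AL group and 0.484 CPM in the HD group, and Elane at 0 counts in every HD rat. Markers of other kidney cells differed as well: podocyte markers summed to 46.9 to 118 CPM in AL rats and 155 to 348 CPM in HD rats, distal tubule markers to 63.0 to 131 CPM and 191 to 699 CPM, and proximal tubule markers to 7621 to 9047 CPM and 10020 to 11406 CPM. Of the 6 proximal tubule markers 5 were higher and 1 lower, and 1 of the higher ones reached the count minimum only in HD rats. Groups did not overlap for 3, all higher in the HD group (50% against 7.25% of all tested genes). Lrp2 overlapped, at 2262, 2200 and 1791 CPM in AL rats and 2483, 2570 and 2082 CPM in HD rats. Collecting duct markers were lower, at 1205 to 1324 CPM in AL rats and 1015 to 1182 CPM in HD rats. Sums overlapped for fibroblast and perivascular markers, at 139 to 313 CPM and 104 to 217 CPM, and for endothelial markers, at 103 to 277 CPM and 80.2 to 255 CPM. The part of these markers in the chemokine and receptor values was not tested.

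**Figure D4:**
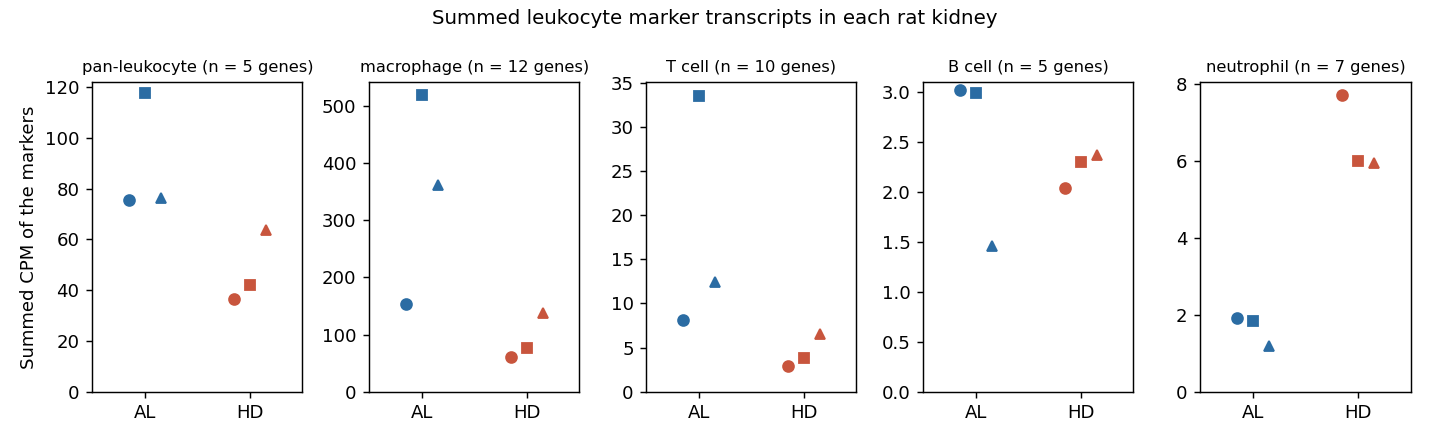
Summed TMM-normalized CPM of 5 marker lists in each rat (blue circle, square and triangle: AL rats 61, 71 and 88; red: HD rats 64, 67 and 69), each panel on its own axis from 0. Pan-leukocyte, macrophage and T cell sums are lower in every HD rat than in every AL rat, and B cell sums overlap. Neutrophil sums are higher in every HD rat, with Mpo as the largest part in rats 67 and 69 and S100a9 in rat 64. Each neutrophil marker alone overlaps between the groups. The macrophage sums do not overlap only because of Lyz2, their largest part.

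The genes around the chemokine family were read from 4 lists of textbook members. Of relatives whose symbols the rule does not cover, 5 of 13 listed genes were tested, and platelet factor 4 (Pf4), a CXC chemokine of platelets, had a log2 ratio of -1.46 ± 0.43 (SE, adjusted *P* = 0.399 in edgeR). Of 34 tested genes of receptor signalling, 24 were lower and 10 higher with a median of -0.19, and 1 reached the count minimum only in AL rats. At unadjusted *P* below 0.05 in edgeR there were 8, all lower, or 23.5% against 5.94% of all tested genes. They included Vav1 (-1.74 ± 0.54, SE), Rac2 (-1.21 ± 0.40, SE), Elmo1 (-1.30 ± 0.40, SE), Was (-1.48 ± 0.46, SE) and Vav3 (-1.11 ± 0.36, SE). In each of these all HD rats were below all AL rats, but they were picked for a small *P* value. Over all 34 tested genes of the list this held for 6, or 17.6% against 7.01% of all tested genes. In the list 1 gene was higher in every HD rat, or 2.94% against 7.25% of all tested genes. The others at unadjusted *P* below 0.05 in edgeR were Gng2 (-1.49 ± 0.56, SE), Arrb2 (-0.68 ± 0.28, SE) and Rgs1 (-1.13 ± 0.47, SE), where the groups overlapped. Of 17 tested cytokines and transcription factors that induce chemokines, 10 were lower and 7 higher with a median of -0.01. Unadjusted *P* below 0.05 was reached in edgeR by 3, or 17.6% against 10.6% of all tested genes. Irf1, which drives interferon-responsive genes, was at 12.9, 16.3 and 10.9 CPM in the AL group and 7.21, 9.49 and 9.34 CPM in the HD group. Irf7 was at 32.6, 33.2 and 96.9 CPM in the AL group and 18.6, 29.9 and 22.3 CPM in the HD group. Its log2 ratio was -1.20 ± 0.44 (SE), with AL rat 88 far above all other rats. Jun, a subunit of AP-1, had a log2 ratio of 0.65 ± 0.17 (SE), with 196, 156 and 194 CPM in AL rats and 331, 302 and 225 CPM in HD rats. Ifng, the gene of interferon gamma, had 0 counts in all rats. Of 25 tested adhesion and heparan sulfate genes, 17 were lower and 8 higher with a median of -0.10. In this list 1 gene reached the count minimum only in AL rats and 2 only in HD rats. Here 4 had unadjusted *P* below 0.05 in edgeR, all lower, or 16% against 5.94% of all tested genes. Vcam1, an endothelial receptor for leukocyte integrins, was at 12.3, 25.4 and 27.1 CPM in the AL group and 6.03, 7.59 and 11.7 CPM in the HD group, a log2 ratio of -1.34 ± 0.36 (SE, adjusted *P* = 0.398 in edgeR and 0.0272 in DESeq2). Icam1, its counterpart for beta-2 integrins, was at 20.0, 23.2 and 23.6 CPM in the AL group and 15.4, 15.6 and 15.6 CPM in the HD group.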

How the data were processed

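Kidney RNA of 6 rats was poly(A)-selected with a kit that does not mark strand and sequenced as single-end reads of 100 bases. The authors quantified transcripts with RSEM 1.1.15 at default parameters on the gene definitions for rn5, and deposited estimated counts (expected counts, not normalized), posterior mean counts and TPM, scaled by RSEM to transcript length and library size. Filters on the reads are not given in the sources used here.

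Estimated counts were summed per gene symbol and rounded. Genes with at least 30 counts in 1 rat were tested with edgeR 4.0.16 (R 4.3.3, quasi-likelihood test, TMM, diet as the only factor) and Benjamini-Hochberg adjustment over all tested genes. The biological coefficient of variation over all genes was 0.242. The standard error is the absolute log2 fold change divided by the square root of F. Levels are TMM-normalized CPM within a gene and deposited TPM between genes. DESeq2 1.42.0, limma 3.58.1 (voom, and log2 of TPM plus 0.1) and the settings named in the closing section were alternatives. The log2 ratio is the fitted log2 fold change. Exact permutation tests used log2 of CPM plus 0.5. The fits were tested on simulated data.

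Of the 53 members 20 had an estimated count that was not whole in a rat (tolerance 0.005), so RSEM divided reads between transcripts there. The upstream sequences are from RefSeq (GRCr8) and were matched by symbol, while gene positions are those of the files (rn5). The members and the lists of pathway genes, markers and pairs were chosen with earlier results of these data known. Every tested member is named except 1 that is not reported here and enters the counts and medians only, genes of the pathway lists only at an unadjusted *P* value below 0.05 (Ifng was added after its counts were seen). Nothing says how the rats were chosen for sequencing, and *P* values describe the spread between these 6 animals.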

Additional observations from a re-analysis of the deposited data

How the results depend on the processing

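No paired analysis was possible because the rats carry numbers of their own and no replicate numbers are shared between the groups. DESeq2 gave 182 genes over all genes and 1 member (Cxcl10, log2 ratio -0.82) at adjusted *P* up to 0.05, where edgeR gave 0 of each. Testing all genes with a count above 0 in 1 rat gave 2 genes and a ligand median of -0.72. With at least 10 counts in every rat the receptor median was 0.085. After thinning to the smallest library, chosen after the data were seen, it was -0.60. With 1 rat left out, the genes at adjusted *P* up to 0.05 ranged from 0 to 4 and those at unadjusted *P* below 0.05 from 605 to 1793. The members ranged from 3 to 10 at the unadjusted threshold and were 0 at the adjusted one, the ligand median ranged from -0.77 to -0.28 and the receptor median from -0.55 to 0.18. Library size alone moved the median of all genes to -0.074.

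Some members changed sign, most with small differences but also Cxcl13, at -1.48 with all rats. Ccl7 was at -0.11 with library size alone, Ccl9 at -0.11 with limma-voom, and Cxcl14 at -0.025, -0.031 and -0.37 with library size alone, limma-voom and limma on TPM. With 1 rat left out the log2 ratio ranged from -0.73 to 1.44 for Ccl7, -1.05 to 1.44 for Ccl9, -0.80 to 0.44 for Cxcl14, -0.81 to 0.81 for Ccl21, -0.10 to 0.45 for Cxcr7, -0.96 to 0.18 for Ccrl2, -0.19 to 0.026 for Cx3cl1, -1.97 to 0.27 for Cxcl13, -0.16 to 0.63 for Ccl24, -0.058 to 0.23 for Ccl28 and -0.0068 to 0.31 for Ccr9. The cause of these changes was not tested. Depth limits the scarce members: 10 tested members had fewer than 10 counts in some rat.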
